A study of Mus musculus with 4 samples.

Results

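The genes described here are 10: 6 of MHC class II antigen presentation (Cd74, H2-Aa, H2-Ab1, H2-Eb1, H2-DMa and H2-Ob) and 4 of the B cell surface (Cd79a, Cd79b, Ms4a1 and Cd22). They are 10 of 18193 genes with a probe set of their own, and the 18 probe sets annotated to 1 of these symbols alone were taken, of 45037 in all. The genes were chosen by their signals in knockout against wild-type arrays, within the arrays numbered 1 and within those numbered 2, so every knockout to wild-type value of them below is a description, with no test.

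Gene expression was measured on Affymetrix whole-genome mouse arrays in CD4+ CD62L+ CD44- T cells, sorted from mice aged 10 to 11 weeks. The knockout mice were CD4-cre fur flox/flox, in which Cre recombinase under the CD4 promoter acts in T cells on the floxed gene of furin, a protease that cleaves precursor proteins. The wild-type mice were littermates with fur flox/flox and without Cre, so both groups carried the floxed alleles. Each group had 2 arrays, numbered 1 and 2 in the labels, and the labels do not say whether these came from separate animals or from pools, so errors describe only the spread between these arrays. In such bulk samples more cells of a type and more RNA per cell cannot be told apart.

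MHC class II molecules are pairs of an alpha and a beta chain that carry peptides to the surface of B cells, dendritic cells and macrophages, where CD4 T cells read them. Cd74, the invariant chain, holds the peptide groove during assembly, H2-DM exchanges its remnant for other peptides, and H2-O restrains H2-DM. Resting mouse T cells are known to make little or no class II, whereas B cells make it throughout most of their life. Cd79a and Cd79b are the signalling chains of the B cell receptor, Ms4a1 encodes the surface protein CD20, and Cd22 encodes an inhibitory co-receptor. In RefSeq the H2 genes lie on chromosome 17, Cd79a and Cd22 on chromosome 7, Cd79b on chromosome 11 and Ms4a1 on chromosome 19.

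The arrays differed by number more than by genotype. Bacterial hybridisation controls, which do not come from the cells, stood 5.87-fold higher on the second array than on the first in the knockout group and 6.04-fold higher in the wild-type group. Gapdh probe sets at the 3′ end gave 3.35 and 0.934 times the signal of those at the 5′ end on knockout arrays 1 and 2, against 4.09 and 0.905 times on wild-type arrays 1 and 2. Knockout minus wild-type differences are therefore given for arrays numbered 1 (pair 1) and those numbered 2 (pair 2), on a scale of log2(signal + 15.3), where changes of dim probe sets come out too small. The Furin probe set had signals of 391.4 and 446.9 on the knockout arrays, against 435.1 and 343.9 on the wild-type arrays. Which part of the gene was deleted is not stated, so this value checks nothing, and directions are those of the arrays labelled knockout. T cell genes were present on all arrays, and Cd4 had signals of 3032.1 and 3348.3 in knockout cells, against 3432.4 and 2974.4 in wild-type cells.

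Across the genes, 9 of the 10 lay at least 2-fold higher in the knockout array of pair 2, whereas 1 of 10, H2-DMa, did so in pair 1 (0 with median centring). These folds are on the log2(signal + 15.3) scale, on which Cd74 just misses 2-fold in pair 1. Among all 10211 genes above the filter on dim probe sets, the share at least 2-fold higher in the knockout array was 1.93% in pair 2 and 1.19% in pair 1. In both pairs at once it was 1 of 10 genes, against 0.382% of all. Counting any increase, 8 of 10 were higher in both pairs and 0 lower in both, against 27.7% of all genes higher in both. At a limit of 1.5-fold the pair 1 count was 3 of 10, against 5.64% of all genes. All 10 genes passed the filter through their brightest probe set, and 15 of the 18 probe sets passed it. The members were picked on this contrast, so nothing is read from how their shares differ from those of all genes. Fitted with limma and no block, 0 of the 22518 probe sets above the filter (0%) had a Benjamini-Hochberg adjusted p under 0.05, with 145 at an unadjusted p under 0.05. With the array number as a block, limma called 6 (0.0266%), and none of these was a probe set of the genes described here. A trended prior beside that block gave 260 calls in either direction (1.15%), with 5 of the 15 kept probe sets among them: 1 of Cd74, all 3 of H2-Aa and 1 of 2 of H2-DMa, and 0 of the B cell genes. The genes were chosen on this contrast, so nothing is read from that count.

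**Figure D1:**
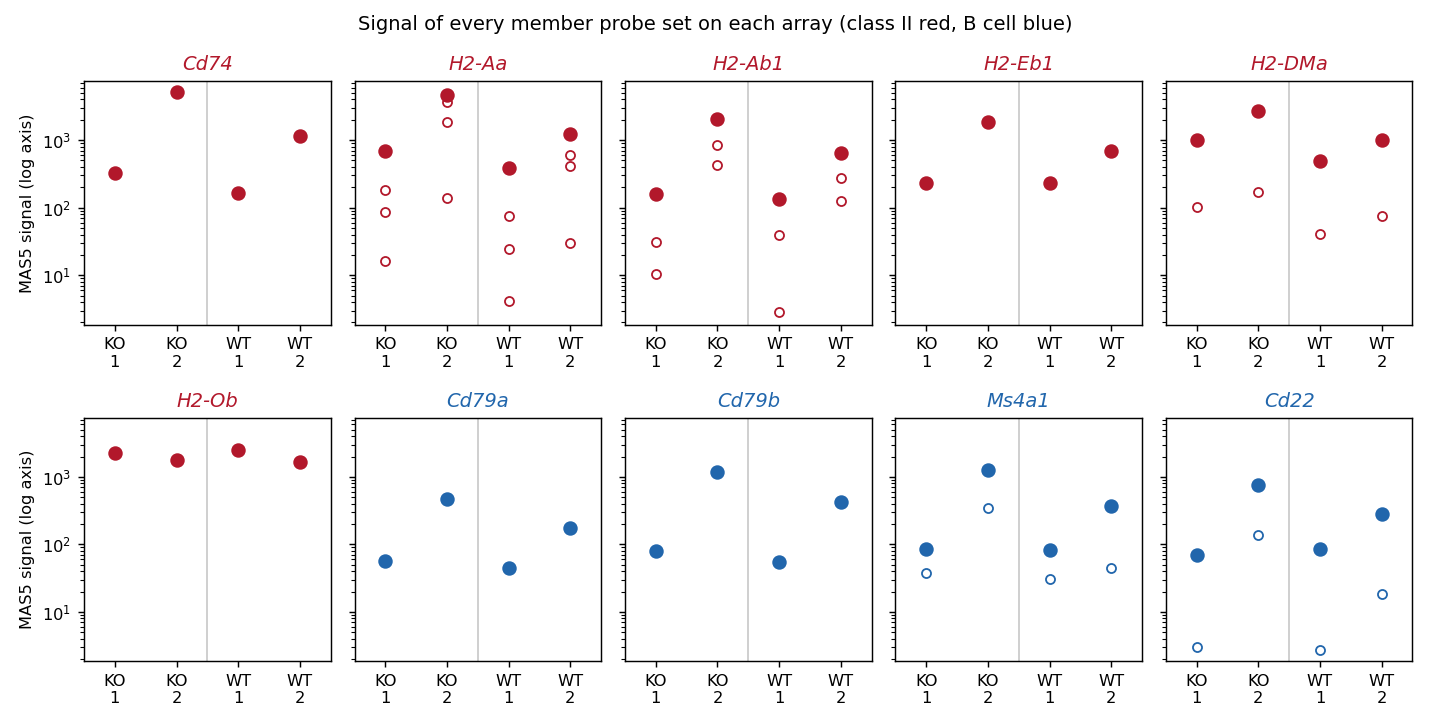
MAS5 signal (log axis) of all 18 probe sets on the knockout (KO) and wild-type (WT) arrays numbered 1 and 2, with class II genes in red and B cell genes in blue; filled points are the brightest probe set of a gene and open points the others. Knockout array 2 has the highest signal of the 4 arrays for 9 of the 10 genes, and H2-Ob is the exception.

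Cd74, the invariant chain, had the largest pair 2 difference of the 10 genes by brightest probe set, and was higher in pair 1 as well. Its signal was 327.2 and 5141.1 on knockout arrays 1 and 2, against 162.6 and 1155.8 on wild-type arrays 1 and 2. Knockout array 2 stood far above the rest, and the groups overlapped, since wild-type array 2 was brighter than knockout array 1. The ratio of knockout to wild type was 2.01 in pair 1 and 4.45 in pair 2, and the mean log2 difference was 1.54 (SE 1.57 without a block).

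The alpha and beta chains of the I-A class II molecule did not move alike in pair 1. H2-Aa, the alpha chain, has 4 probe sets. The brightest had signals of 699.4 and 4641 on knockout arrays 1 and 2, against 390.9 and 1213.2 on wild-type arrays 1 and 2. All 4 were higher in the knockout array of both pairs, with log2 differences between 0.70 and 1.35 in pair 1 and between 1.80 and 2.58 in pair 2. Of these probe sets 3 carry the suffix x and 1 the suffix s, which mark probes that can also bind related or several transcripts. H2-Ab1, the beta chain, had signals of 157.6 and 2052.1 on knockout arrays 1 and 2, against 135.7 and 653.8 on wild-type arrays 1 and 2. Its difference was 0.20 in pair 1 and 1.63 in pair 2. A second probe set was lower in the knockout array of pair 1, with 30.6 in knockout against 38.8 in wild-type cells, and higher in that of pair 2, with 838.4 in knockout against 276.9 in wild-type cells. The third had 10.3 and 423.6 on the knockout arrays, against 2.9 and 125.1 on the wild-type arrays, and its values on arrays numbered 1 lie below the added 15.3. The H2-Ab1 probe set given first carries the suffix s and the third the suffix x, so the same limit holds for them.

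H2-Eb1, the beta chain of the I-E molecule, was level in pair 1 and higher in pair 2. Its signal was 229.7 and 1873.5 on knockout arrays 1 and 2, against 228.3 and 684.5 on wild-type arrays 1 and 2. The knockout to wild-type ratio was thus 1.01 in pair 1 and 2.74 in pair 2. Both arrays numbered 2 lay above both arrays numbered 1, so the genotype groups overlapped.

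The member genes of the peptide exchange factor H2-DM and of its restrainer H2-O differed from each other. H2-DMa, the alpha chain of H2-DM, had signals of 1013.9 and 2660.1 on knockout arrays 1 and 2, against 490.3 and 1008.1 on wild-type arrays 1 and 2. It was the only member whose knockout arrays both lay above both wild-type arrays, by a narrow margin at the inner edge, and 8.69% of all kept genes showed this order. Its differences of 1.03 in pair 1 and 1.39 in pair 2 were the closest between pairs among the 9 higher genes. A dimmer probe set of H2-DMa, with the suffix x, gave 102.4 and 169.8 in knockout cells, against 40.9 and 74.5 in wild-type cells. Its differences were 1.07 and 1.04 in the pairs. H2-Ob, the beta chain of H2-O, had signals of 2239.9 and 1802.7 on knockout arrays 1 and 2, against 2522.8 and 1633 on wild-type arrays 1 and 2. Its difference was -0.17 in pair 1 and 0.14 in pair 2, and it alone was dimmer on the arrays numbered 2.

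Class II genes are known to be switched on through an X box and a Y box upstream of the start, bound by RFX and NF-Y with the co-activator CIITA. RefSeq promoters of GRCm38.p6, from 250 bases before to 50 bases after the start, were found for 6 genes, with 7 entries, and Cd74 was not looked up. They were searched on both strands for the Y box letters TGATTGG, which hold the inverted CCAAT box, and for GCAAC, the core of the X box. The 3 promoters shown hold both, with 31, 30 and 28 bases from the first letter of the core to that of the Y box in H2-Aa, H2-Eb1 and H2-Ob. They are printed because H2-Ob, whose signal did not follow the other genes, holds the same arrangement; capitals mark both motifs.
H2-Aa, chr17:34287774-34288073, minus strand: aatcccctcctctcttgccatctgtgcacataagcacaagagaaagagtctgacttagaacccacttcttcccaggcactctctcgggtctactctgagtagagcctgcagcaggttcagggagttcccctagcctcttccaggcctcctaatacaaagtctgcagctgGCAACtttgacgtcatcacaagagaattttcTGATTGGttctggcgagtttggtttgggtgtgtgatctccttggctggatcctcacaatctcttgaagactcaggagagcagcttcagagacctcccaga
H2-Eb1, chr17:34305617-34305916, plus strand: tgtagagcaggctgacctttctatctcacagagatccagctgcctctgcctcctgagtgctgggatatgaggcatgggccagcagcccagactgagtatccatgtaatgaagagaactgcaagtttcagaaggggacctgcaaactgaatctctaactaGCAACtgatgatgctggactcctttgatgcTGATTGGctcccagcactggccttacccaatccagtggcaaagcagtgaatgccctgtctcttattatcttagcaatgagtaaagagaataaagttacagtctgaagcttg
H2-Ob, chr17:34238655-34238954, plus strand: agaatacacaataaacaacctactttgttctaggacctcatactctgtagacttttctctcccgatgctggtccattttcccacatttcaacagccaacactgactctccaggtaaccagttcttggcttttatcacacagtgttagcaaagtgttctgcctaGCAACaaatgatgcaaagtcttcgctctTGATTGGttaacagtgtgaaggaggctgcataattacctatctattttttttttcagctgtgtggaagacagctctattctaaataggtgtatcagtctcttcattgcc

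In all 32851 promoter entries of the table, 7.82% hold the Y box letters, 35.2% hold GCAAC, and 0.164% hold the core 20 to 35 bases before the Y box on either strand. This spacing was set after these promoters had been read, so it describes them only. In the promoters of H2-DMa, Cd79a and Cd22 the arrangement was not matched. The octamer ATGCAAAT, in 1.74% of entries, was matched in 0 of the 7. The letters CCCNNGGG, the core of the palindrome bound by the B cell factor EBF1, occur in 13.7% of entries and were matched in Cd22, from 48 to 41 bases before the start. Of 10 other genes of class II presentation in the promoter table, 2 hold the X and Y arrangement, H2-Oa and H2-Eb2. H2-DMb1 and H2-DMb2 do not, and the rest of the 10 encode no class II chain.

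**Figure D2:**
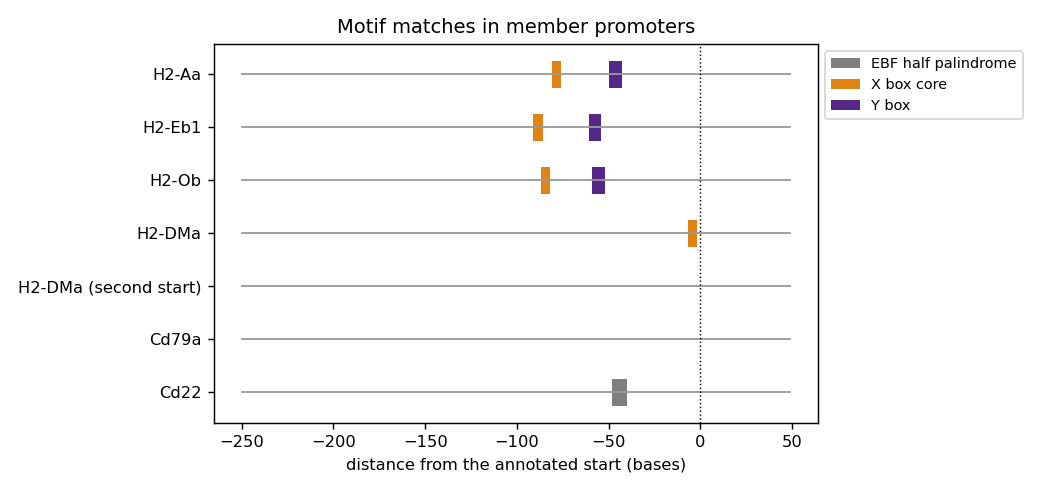
Motif matches in the 7 promoter entries of 6 genes, drawn by distance in bases from the annotated start (dotted line), with the X box core in orange, the Y box in purple and the EBF1 core in grey. H2-Aa, H2-Eb1 and H2-Ob share an X core followed by a Y box, and the Y box begins at -50, -61 and -59.

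The B cell genes were close to level in pair 1 and higher in pair 2. On the arrays numbered 1 their brightest probe sets lay only between percentiles 47 and 55.9 of all probe sets. Without detection calls, level values there cannot tell no change from signals too dim to show one. Cd79a had signals of 57.6 and 473 on knockout arrays 1 and 2, against 44.5 and 174.4 on wild-type arrays 1 and 2. Its difference was 0.29 in pair 1 and 1.36 in pair 2. Its partner Cd79b had 80 and 1184 in knockout cells, against 54.9 and 418.7 in wild-type cells, and differences of 0.44 and 1.47. Both receptor chains followed the same order of arrays, with knockout array 2 highest and wild-type array 1 lowest.

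Ms4a1, which encodes CD20, had signals of 86.9 and 1248.2 on knockout arrays 1 and 2, against 81.4 and 369.9 on wild-type arrays 1 and 2. Its difference was 0.08 in pair 1 and 1.71 in pair 2. In a dimmer probe set the signals were 37.8 and 341.6 in knockout cells, against 30.3 and 44 in wild-type cells, and the pair 2 difference was 2.59. Cd22 had 68.9 and 766.7 in knockout cells, against 86.8 and 277.4 in wild-type cells. It was the only B cell gene whose brightest probe set was lower in the knockout array of pair 1, with a difference of -0.28, against 1.42 in pair 2. A second Cd22 probe set, with 3.0 and 137.2 in knockout cells against 2.7 and 18.7 in wild-type cells, says little about pair 1, where both values lie under the added 15.3.

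Set side by side, the class II genes lay at separate levels in pair 1, while in pair 2 all but H2-Ob lay near the B cell genes. In pair 1, Cd74, H2-Aa and H2-DMa differed by 0.95, 0.82 and 1.03, while H2-Ab1, H2-Eb1 and H2-Ob differed by 0.20, 0.01 and -0.17. The 4 B cell genes ran from -0.28 to 0.44 there. In pair 2, the class II genes other than H2-Ob ran from 1.39 to 2.14 and the B cell genes from 1.36 to 1.71. The median over the 6 class II genes was 0.51 in pair 1 and 1.53 in pair 2, that over the 4 B cell genes 0.18 and 1.44, and that over all kept genes 0.02 and -0.01. The class II median thus exceeded the B cell median by 0.32 in pair 1 and by 0.09 in pair 2. The pair 1 gap carries the limit of dim B cell signals given above. The gap in pair 2 turned to -0.11 with the mean of all probe sets of a gene, whereas in pair 1 it ran from 0.31 to 0.39 over the settings tried on all 4 arrays. For 8 of 10 genes the pair 2 difference exceeded the pair 1 difference by at least 1 on the log2 scale, against 2.28% of all kept genes. Over both pairs the difference was 1.37 (SE 1.06) for H2-Aa, 0.91 (SE 1.38) for H2-Ab1, 0.72 (SE 1.12) for H2-Eb1, 1.21 (SE 0.64) for H2-DMa and -0.01 (SE 0.39) for H2-Ob. Among the B cell genes it was 0.82 (SE 1.08) for Cd79a, 0.95 (SE 1.49) for Cd79b, 0.90 (SE 1.37) for Ms4a1 and 0.57 (SE 1.19) for Cd22, all without a block. These errors hold the step between array numbers. With the array number as a block they ran from 0.20 for H2-Ob to 0.41 for Cd22. The genes were chosen on this contrast, so no ranking by error is read from either fit. With 1 array per genotype in a pair, the difference between pairs has no replicate and was not tested.

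**Figure D3:**
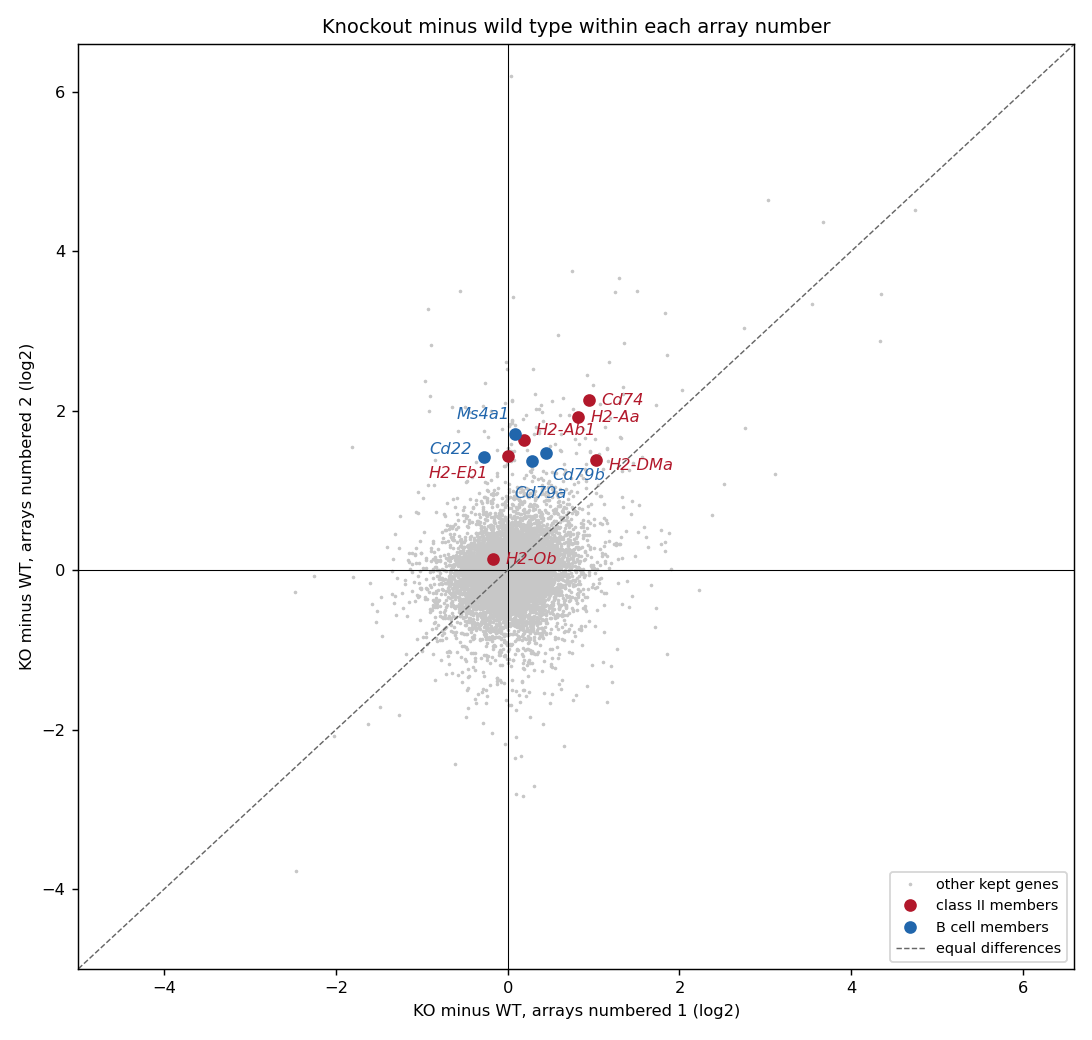
Knockout minus wild-type log2 difference in arrays numbered 1 (horizontal) and numbered 2 (vertical), with class II members in red, B cell members in blue, the other kept genes in grey and a dashed line of equal differences. Of the members 9 lie above 1 on the vertical axis, and Cd74, H2-Aa and H2-DMa lie to the right of the others at 0.82 to 1.03.

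The array number itself gave a contrast that is orthogonal to genotype and was tested with limma over all kept probe sets, with genotype as a covariate. By the brightest probe set, 9 of the 10 genes were higher on the arrays numbered 2 at an adjusted p under 0.05, against 18.4% of all kept genes. Over probe sets it was 13 of 15, against 19.5% of all kept probe sets. The differences of array 2 minus array 1 ran from 1.20 for H2-DMa (SE 0.20, adjusted p = 0.0115) to 3.32 for Cd74 (SE 0.32, adjusted p = 0.0038). H2-Ob differed by -0.47 (SE 0.20, adjusted p = 0.12), and limma called it lower with a trended prior or with median centring. The brightness of these genes on the second arrays was known when they were chosen, so the counts are not independent evidence of it. The rise was not particular to them. The same fit called higher 8 of 12 T cell genes, 8 of 12 kept further B cell genes and 5 of 5 kept neutrophil genes. It called higher 6 of 10 kept macrophage and monocyte genes, 2 of 4 kept dendritic cell genes and 3 of 10 kept other class II genes. It called higher 1 of 6 kept plasma cell genes and 1 of 5 kept genes of CD8 T and NK cells. In the other class II list 1 gene was called lower, and likewise 1 in the plasma cell list. These calls rest on the filter, since with no filter on dim probe sets limma called 0 for the array number. Sizes differed between lists, with a median step of 2.19 for the class II members and 2.59 for the B cell members. It was 2.15 for neutrophil genes, 1.41 for further B cell genes, 0.84 for macrophage and monocyte genes and 0.78 for T cell genes. For other class II genes it was 0.59, for dendritic cell genes 0.27, and for all kept genes 0.06. Hybridisation controls and the Gapdh ratio moved with the number as given above, and whether number stands for cells, animals or array handling cannot be told apart.

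The step between arrays was present within each genotype. In knockout cells the array 2 minus array 1 difference was 3.91 for Cd74, 3.65 for Cd79b, 3.63 for Ms4a1 and 3.58 for H2-Ab1. In wild-type cells it was 2.72 for Cd74, 2.63 for Cd79b, 1.99 for Ms4a1 and 2.15 for H2-Ab1. Of the 10 genes 9 were thus brighter on the second wild-type array too, with a larger step in the knockout cells. H2-Ob ran the other way in both genotypes, with -0.31 in knockout cells and -0.62 in wild-type cells. By arithmetic the knockout step less the wild-type step equals the pair 2 difference less the pair 1 difference. The larger knockout step thus restates the pair differences above and adds no further evidence.

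**Figure D4:**
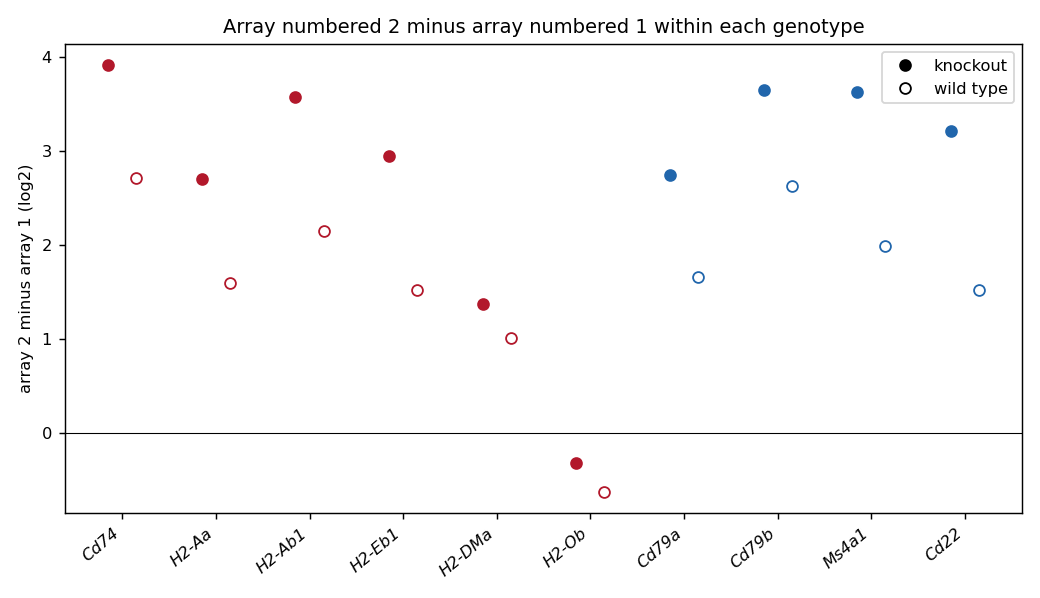
Array 2 minus array 1 on the log2 scale for the brightest probe set of each gene, in knockout cells (filled) and wild-type cells (open), with class II genes in red and B cell genes in blue. All genes but H2-Ob lie above 0, and the knockout point lies above the wild-type point for each gene, which restates that each pair 2 difference exceeded the pair 1 difference.

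The other genes of class II presentation did not share 1 pattern. H2-DMb2, a beta chain of H2-DM, had signals of 60.6 and 878.8 on knockout arrays 1 and 2, against 45.5 and 177.7 on wild-type arrays 1 and 2. H2-Oa, the partner of H2-Ob, had 375 and 1022.3 in knockout cells, against 266.2 and 487.2 in wild-type cells. It was higher in both pairs, by 0.47 and 1.05, unlike H2-Ob. Ciita, the class II co-activator, did not pass the filter and had 21.6 and 178 in knockout cells, against 15.5 and 39.9 in wild-type cells; it was chosen after its values were seen. Ctss and Ifi30, a protease and a thiol reductase of antigen processing that other cells also use, are named for their high signals and differed by 0.07 and -0.08, and Cd86, a co-stimulatory ligand, by -0.45. Of 13 genes of this list with a probe set, 5 were higher and 2 lower in both pairs, the median was 0.09 (0.03 in pair 1, 0.14 in pair 2), and 0 of 10 kept ones passed in the limma fits with or without the block.

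Further B cell genes lay higher in pair 2. Of 19 with a probe set, 13 were higher and 0 lower in both pairs, and 9 were at least 2-fold higher in pair 2 and 1 in pair 1. Their median difference was 0.13 in pair 1 and 0.97 in pair 2, and 0 of 12 kept ones passed in the fit with or without the block. Tnfrsf13c, the receptor for the survival factor BAFF, had 55.3 and 354.8 in knockout cells, against 32.8 and 108.6 in wild-type cells. Blnk, an adaptor of B cell receptor signalling, had 14 and 439.5 in knockout cells, against 11.5 and 125.3 in wild-type cells. Ly6d, a surface marker of B lineage cells, differed by -0.27 in pair 1 and 1.75 in pair 2. Named for high signals were Ighm, the heavy chain of IgM, whose brightest probe set differed by -0.10 and whose probe sets averaged 0.50, and Cd72, a B cell co-receptor, at 0.34. The lineage factors Pax5 and Ebf1 were dim, and neither passed the filter. Pax5 had 16.7 and 52 in knockout cells, against 48.2 and 30.4 in wild-type cells, and Ebf1 had 21.2 and 76.5 in knockout cells, against 16 and 28 in wild-type cells. The summed signal of the 19 genes was 12376.5 and 22261 on knockout arrays 1 and 2, against 13676.1 and 18447.1 on wild-type arrays 1 and 2, and none was at 0. Most of this sum was Ighm, with 10033.3 and 15221.3 in knockout cells, against 11655.7 and 14964.6 in wild-type cells. What B cells contribute to the class II values was not tested.

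Macrophage and monocyte genes, from a list not limited to cells that carry class II, lay higher in the knockout arrays by a similar median in both pairs. The summed signal of 12 macrophage and monocyte genes was 2298.3 and 6614.8 on knockout arrays 1 and 2, against 1592.2 and 3938.1 on wild-type arrays 1 and 2. Of these genes 10 were higher and 0 lower in both pairs, with a median of 0.62 in pair 1 and 0.69 in pair 2, and 10 of 12 passed the filter. The similar medians hide unlike spreads. At least 2-fold higher were 0 of 12 in pair 1 and 5 of 12 in pair 2, against 1.19% and 1.93% of all kept genes. Lyz2, lysozyme of myeloid cells, had 123.3 and 935.4 in knockout cells, against 54.6 and 174.2 in wild-type cells. For Mpeg1, a pore-forming protein of macrophages, the pair differences were 0.75 and 3.75, the second against a wild-type signal of 14.7, which is below the added 15.3, and for Tyrobp, a signalling adaptor, 0.38 and 2.07. For Csf1r, the receptor of a macrophage growth factor, they were 0.62 and 0.97, and for Adgre1, which encodes a macrophage surface marker, 0.61 and 0.12. Cst3 and Fcgr2b, named for high signals, differed by 0.37 and 0.46 over both pairs. None of the list was at 0, and none passed with or without the block in limma. A trended prior beside the block called 2 of the 10 kept genes, Lyz2 and Mpeg1, and likewise 4 of 5 kept neutrophil genes and 2 of 5 kept genes of CD8 T and NK cells, all higher, against 0.94% of all kept genes. The lists were chosen with earlier results of these data known, so nothing is read from these counts. The part of macrophages and monocytes in the class II values was not tested.

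Dendritic cell genes had no common direction. Of 11 with a probe set 4 passed the filter, 2 were higher and 2 lower in both pairs, and the median was -0.20 in pair 1 and 0.02 in pair 2. Their summed signal was 7299.5 and 15239.5 on knockout arrays 1 and 2, against 9414.3 and 16309.9 on wild-type arrays 1 and 2, and most of it was Ccr7, which T cells also make and which differed by -0.29. Bst2, which other cells make as well, differed by 0.60 and Cd83 by 0.13. Of the defining genes, Itgax had 81 and 117.8 in knockout cells, against 41.4 and 10.7 in wild-type cells. Flt3, a cytokine receptor of dendritic cell precursors, had 29.5 and 9.6 in knockout cells, against 44.2 and 36.7 in wild-type cells. Zbtb46, a transcription factor of classical dendritic cells, had 117.8 and 139.2 in knockout cells, against 138.9 and 101.3 in wild-type cells. None was at 0, and Itgax and Flt3 did not pass the filter. Neutrophil genes, which do not mark class II cells, summed to 463.6 and 9520 in knockout cells, against 146.1 and 897.1 in wild-type cells, and plasma cell genes to 6829.9 and 7051.4 in knockout cells, against 6530.9 and 4055.1 in wild-type cells. All 7 neutrophil genes were higher in both pairs and 5 passed the filter, but their signals went as low as 1.7, so the medians drawn in the plot of gene lists rest partly on values below the added 15.3. The 7 plasma cell genes had medians of 0.25 and 1.23 in pairs 1 and 2. The 7 genes of CD8 T and NK cells had medians of 0.32 and 0.02. For the 12 T cell genes the medians were 0.02 and -0.05, and 0 were higher and 2 lower in both pairs. What these cells contribute was not tested.

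**Figure D5:**
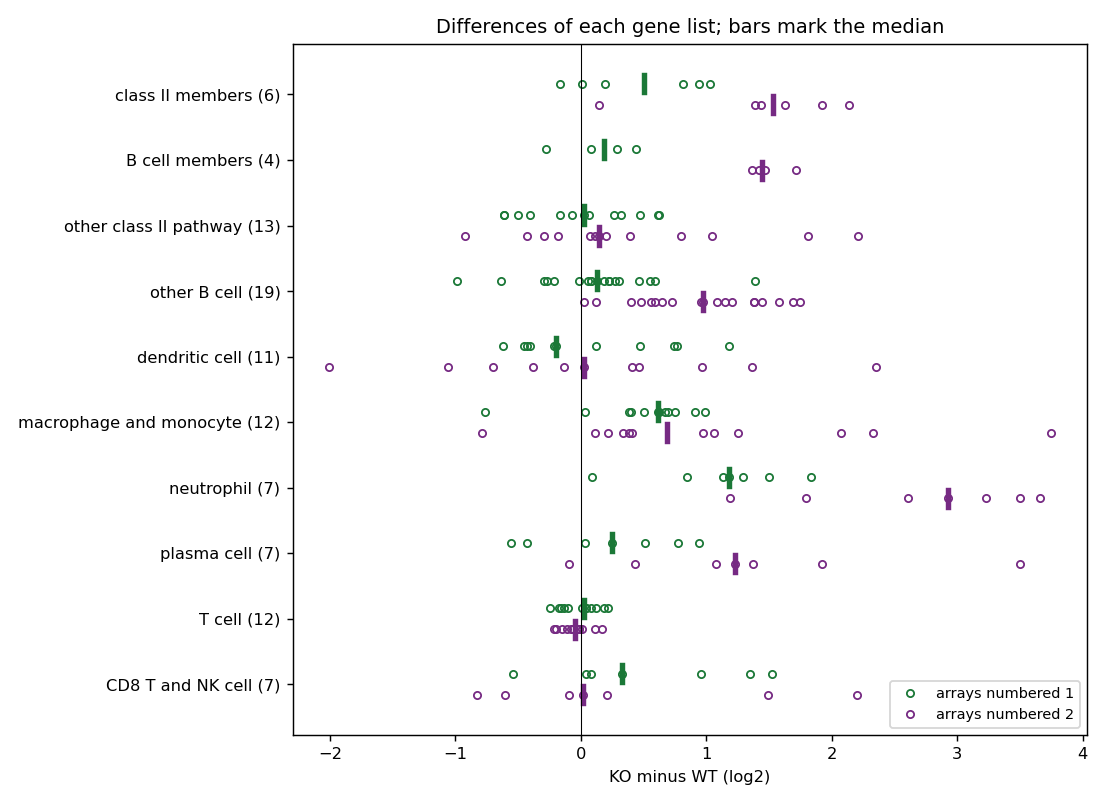
Knockout minus wild-type log2 difference of each gene, by list, in arrays numbered 1 (green) and numbered 2 (purple); bars mark medians and the number of genes with a probe set stands in brackets. The T cell genes lie around 0 in both pairs, while the B cell lists lie near 0 in pair 1 and higher in pair 2.

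Genes outside the members were ranked by how closely their log2 signal, centred over the 4 arrays, matched the mean profile of the members, by Euclidean distance. Nearest to the class II profile were Tnfrsf13c (distance 0.11), Fcmr (0.31), Srpk3 (0.35), Wdfy4 (0.39) and Pkig (0.42). Nearest to the B cell profile were Ly86 (0.33), Ighv14-2 (0.45), Ly6d (0.52), H2-DMb2 (0.53) and Wdfy4 (0.54). Ly86 had 50.9 and 546.3 on knockout arrays 1 and 2, against 36.2 and 154.5 on wild-type arrays 1 and 2, and Fcmr, an IgM receptor, had 104.9 and 624.5 on the knockout arrays, against 98.6 and 230 on the wild-type arrays. With 4 arrays such a ranking is a description of these arrays, and it is shaped mostly by the difference between numbers.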

How the data were processed

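The authors deposited a linear intensity for each probe set on each array. Per the submitters' processing notes these are MAS5 signals, whose settings are not given in the files used here. Each array had the same trimmed mean, 500.003 with 2% trimmed at each end. There are no detection calls, and the number of arrays limits the precision. Of 45101 probe sets 64 controls were left out. Symbols come from the platform annotation, updated through Entrez identifiers (34741 of 34945 probe sets with 1 symbol). The pseudocount of 15.3 is the 25% quantile of all values, and the 22518 probe sets above the median mean log2 signal were kept. A gene is represented by its brightest probe set.

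Genotypes were tested two-sided with limma 3.58.1 (R 4.3.3; lmFit, then eBayes) without a block, and with the array number as a block as an alternative. Benjamini-Hochberg adjustment ran over all kept probe sets, with a threshold of 0.05. The array number was tested with genotype as a covariate. The tests were checked on simulated data. Arrays with the same number deviated together from their group means (correlation 0.80 over probe sets, which are not independent of each other). The labels state no shared animal or day, but hybridisation controls differed by number, so differences are also given within each number. In the genotype tests the number entered only as the block of the alternative fits, and the main fit and its errors leave it out.

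Members and gene lists were chosen with earlier results of these data known. The rule for names took all members, of each other list up to 3 kept genes of the largest difference and the 2 brightest, and the 5 genes nearest to each profile. It was not followed for the neutrophil, plasma cell, T cell and CD8 T and NK cell lists, which are summarised. Ciita, H2-Eb2, Pax5, Ebf1, Zbtb46, Itgax, Flt3, Csf1r, Adgre1, Cd4 and Furin are named outside it, after their values were seen. Alternatives covered the pseudocount, filter, normalization, prior, block, fold limit, probe set summary and each array left out.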

Additional observations from a re-analysis of the deposited data

How the results depend on the processing

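Without a block limma called 0 probe sets for genotype, also with each array left out (0 to 0). The replicate block on array number called 6, and the replicate block with a trended prior 260; the cause was not tested. For the array number, 7791 probe sets were called, between 6492 and 10270 under 7 alternatives, and 0 with no filter. The class II and B cell medians, 1.06 and 0.86, kept their direction under the pseudocounts, scalings, probe set mean, filter and block tried, and a block leaves each difference as it is. The class II median was 1.21 without H2-Ob, an alternative chosen after seeing the data. Of the members, 1 was 2-fold higher in pair 1, against 3 at 1.5-fold, 2 with the mean of probe sets, and 0 with the pseudocount at the median of all values or with median centring; 9 were in pair 2 in all 6 alternatives.

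With 1 array left out, genotype and array number are partly mixed. The class II median then ran from -0.20 (without knockout replicate 2) to 2.45, that of the B cell genes from -0.90 (without knockout replicate 2; -0.15 without wild type replicate 1) to 2.45, and their gap from -0.0063 (without knockout replicate 1) to 0.70. Differences of the members ran, with 1 array left out, from -0.41 to 3.50 for Cd74, from 0.017 to 2.72 for H2-Aa, from -0.88 to 2.70 for H2-Ab1, from -0.75 to 2.19 for H2-Eb1, from 0.52 to 1.90 for H2-DMa, from -0.33 to 0.30 for H2-Ob, from -0.55 to 2.20 for Cd79a, from -0.87 to 2.78 for Cd79b, from -0.92 to 2.71 for Ms4a1, and from -1.04 to 2.18 for Cd22. Those of other named genes that turned sign ran from -0.51 to 3.04 for H2-DMb2, from -0.16 to 2.23 for Ciita, from -0.22 to 0.35 for Ctss, from -0.43 to 0.27 for Ifi30, from -0.13 to 2.26 for Tnfrsf13c, from -1.07 to 2.89 for Blnk, from -1.28 to 2.76 for Ly6d, from -0.40 to 0.20 for Ighm, from -0.32 to 0.99 for Cd72, from -0.75 to 0.32 for Pax5, from -0.012 to 1.32 for Ebf1, from -0.91 to 2.11 for Bst2, from -0.80 to 0.22 for Ccr7, from -0.17 to 0.43 for Cd83, from -0.10 to 0.30 for Zbtb46, from -0.39 to 1.12 for Cst3, from -0.32 to 1.24 for Fcgr2b, from -0.48 to 1.94 for Fcmr, from -0.37 to 1.72 for Srpk3, from -0.66 to 2.17 for Wdfy4, from -0.19 to 1.69 for Pkig, from -0.50 to 2.59 for Ly86, from -1.32 to 2.08 for Ighv14-2, from -0.11 to 0.099 for Cd4, and from -0.055 to 0.27 for Furin. The rest kept their sign but not their size, from -0.78 to -0.13 for Cd86, from 0.053 to 1.46 for H2-Oa, from 0.27 to 3.05 for Lyz2, from 0.49 to 1.97 for Tyrobp, from 0.053 to 0.68 for Adgre1, from 1.39 to 3.11 for Mpeg1, from 0.43 to 1.16 for Csf1r, from 0.998 to 2.12 for Itgax, and from -1.16 to -0.31 for Flt3. With all arrays, Ctss turned to -0.011 with quantile normalization and, when probe sets were averaged, Ighm to 0.50 and Cd4 to 0.14. H2-Eb2 was not among the genes run under these alternatives. Dim probe sets have no detection call, which limits values near or below the pseudocount.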
